A study of Rattus norvegicus with 14 samples.

Results

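The 70 genes described here stood higher with the BET inhibitor JQ1 than with its vehicle after 6 h of phenylephrine and lower with JQ1 after 48 h, in cultured neonatal rat heart muscle cells. They were chosen by these measured values: a difference between group means, JQ1 minus vehicle, of at least 0.3 on the log2 scale at 6 h and of at most -0.3 at 48 h, with the highest of the 5 group means at least 7. The 70 are 0.531% of the 13184 genes measured. The sign change between the times is therefore how they were found, and both JQ1 differences are given as a description without a test. RNA was measured on 14 Affymetrix rat arrays from ventricular myocytes of Sprague-Dawley pups 2 days old. Every culture was pre-plated to deplete non-myocytes and kept free of serum before stimulation. Unstimulated cells received DMSO, the vehicle, and were sampled at 90 min (n = 3). Stimulated cells received phenylephrine (PE, 100 µM) together with DMSO or with JQ1: the DMSO arm had 2 arrays after 6 h and 3 after 48 h, and the JQ1 arm 3 at each time. Per the treatment protocol JQ1 or DMSO was added 6 h before PE, while the series' design text puts PE first, so the order is not settled. The JQ1 concentration is not given in the sources used here. JQ1 without PE, and unstimulated cells at 6 h or 48 h, are not analysed here, so time in culture and PE cannot be told apart in comparisons with the 90 min cells. Neonatal cells in culture are an early stage of heart muscle, and pre-plating leaves some non-myocytes behind. No label says that the arrays within a group are separate cultures, so all errors and p-values reflect array-to-array spread, which may be technical.

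BET proteins bind acetylated histones at promoters and enhancers and help paused RNA polymerase move into the gene body, and JQ1 fills their acetyl-lysine pocket. PE activates alpha1-adrenergic receptors, which in myocytes turn on calcium and MAP kinase signalling, an early wave of transcription factors and then a lasting growth programme of actin, adhesion and secreted genes. Actin dynamics feed back on this programme through serum response factor and its cofactors, and the AP-1 factors FOS and JUN act on many of the protease and cytokine genes that follow.

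Levels are the deposited log2 values of the brightest probe set of a gene, and 1 unit is a 2-fold difference within that probe set. Within a group any pair of arrays correlated at 0.9976 or more (Pearson's r across probe sets, up to 0.9986), and a difference had a median standard error (SE) of 0.060, or 0.068 for comparisons with the 2-array group, DMSO at 6 h. All 11 cardiomyocyte markers measured were bright, with group means from 11.87 to 14.67. Markers of other cells were present too: all 12 fibroblast markers exceeded the dim limit of 6.23 (the level below which 30% of genes lie) in at least 1 group, as did 8 of 10 for smooth muscle and pericytes, 4 of 9 for endothelium and 8 of 12 for leukocytes. The endothelial markers Pecam1, Vwf, Cldn5, Emcn and Tie1, the leukocyte marker Ptprc and the C1q genes stayed under that limit in every group. None of the 70 genes is in any of these marker lists. With JQ1, 9 of 12 fibroblast markers were called lower at 6 h (median -0.39) and 12 of 12 at 48 h (median -1.39), by the limma test described below. The summed fibroblast marker level was 15.66 to 15.69 in DMSO and 15.42 to 15.44 with JQ1 at 6 h, and 15.48 to 15.51 in DMSO and 14.49 to 14.56 with JQ1 at 48 h. For smooth muscle and pericyte markers 7 of 10 were lower at 6 h and 8 of 10 at 48 h, for leukocyte markers 5 and 4 of 12, and for cardiomyocyte markers 3 and 5 of 11, with 2 and 4 higher. Over all genes JQ1 was called lower for 28.8% at 6 h and 29.6% at 48 h. In these bulk samples fewer cells of a type and less RNA per cell cannot be told apart. At 48 h most fibroblast and smooth muscle and pericyte markers were lower with JQ1, as were the 70 genes, and their part in the lower values of the 70 was not tested. At 6 h 9 of 12 fibroblast markers were called lower with JQ1 while the 70 genes were higher. The choice set the direction of the 70 genes at both times, so nothing is read from these comparisons with the markers.

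Among the 70 genes the JQ1 difference at 6 h ran from 0.30 to 1.64 with a median of 0.46, and at 48 h from -1.44 to -0.30 with a median of -0.58, beside medians of 0.00 and 0.02 over all genes. Of the 13184 genes, 15.5% reached 0.3 at 6 h and 21.2% reached -0.3 at 48 h, whatever their brightness. Among the 8672 genes bright enough for the choice, 1110 were at least 0.3 higher at both times and 1505 at least 0.3 lower at both. As many as 70 showed the reverse order, lower at 6 h and higher at 48 h. The difference at 48 h was the larger one in 46 of the 70 genes, and the one at 6 h in 24. A 2-fold difference was reached by 2 genes at 6 h, Lmcd1 and Flnc, and by 8 genes at 48 h. The JQ1 and DMSO arrays overlapped for none of the 70 genes at either time. Over all genes the JQ1 arrays lay wholly above the DMSO arrays at 6 h for 31.7% and wholly below them at 48 h for 31.6%, and among the bright genes for 38.3% and 38.9%. The choice used these arrays, so nothing is read from the count.

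**Figure D1:**
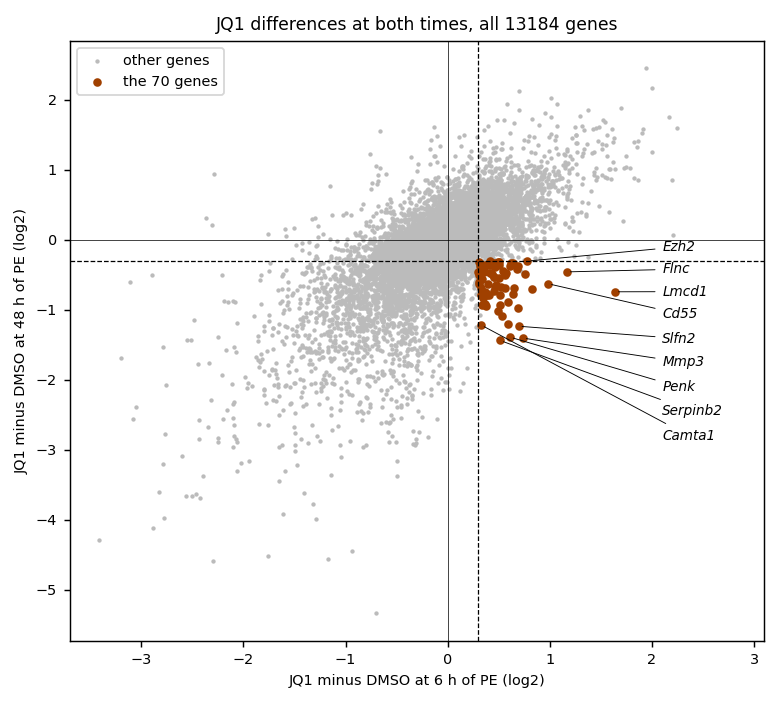
JQ1 minus DMSO at 6 h of PE (x axis) against the same at 48 h (y axis), as log2 differences of group means, for all 13184 genes, with the 70 chosen genes in brown and dashed lines at 0.3 and -0.3. Most genes lie along a rising diagonal, and Lmcd1, at 1.64 and -0.74, stands farthest right among the 70. The 9 grey points inside the marked corner passed both differences but were too dim.

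The limits run through a continuous range of values. Just inside at 6 h were Rell1 and Por at 0.30 and Nid2-ps16 at 0.30, and just outside were Hyls1, Bcor and C2h4orf46, all at 0.30 when rounded but under the limit. At 48 h the genes just inside were Ezh2 at -0.30, Ccne1 at -0.31 and Nr4a1 at -0.31, and those just outside were Nop58 at -0.30, Cyrib at -0.29 and E2f1 at -0.29. For brightness, Phlda1 at 7.06, Fam89a at 7.07 and Nmu at 7.18 were in, while Fam221a at 6.91, Fam72a at 6.70 and Itga6 at 6.65 were out. A limit of 0.25 would give 107 genes and one of 0.4 would give 33. Centring each array on its median, which raises JQ1 values over DMSO by 0.093 at 6 h and 0.099 at 48 h at the median gene, would give 80 genes, 53 of them among the 70.

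Against unstimulated cells most of the 70 genes were higher in PE-treated cells in DMSO, which the choice did not require. The 4 groups with PE were each compared with the 90 min DMSO arrays by limma, two-sided, with Benjamini-Hochberg adjustment over all 13184 genes and a call at an adjusted p under 0.05. The 90 min arrays entered neither difference used to choose the genes, but the PE arrays did, and the 4 comparisons share their control arrays, so these counts are not independent of the choice or of each other. After 6 h of PE in DMSO, 55 of the 70 genes were called higher, where 18.3% of all genes were, and 5 lower, where 18.9% were, with a median difference of 0.56 beside 0.01 over all genes. After 48 h of PE in DMSO, 61 were higher (21.4% of all genes) and 3 lower (22.6%), with a median of 0.72. With JQ1 and PE at 6 h, 68 were higher (30.9% of all genes), with a median of 1.01, and none was lower by limma (31.7%), nor at an unadjusted p under 0.05. With JQ1 and PE at 48 h, 35 were higher (31.6%) and 21 lower (29.2%), with a median of 0.14, so that this group stood closest to unstimulated cells. Among the genes with a group mean of at least 7, the matching shares were 24.4% higher and 26.3% lower at 6 h in DMSO, 27.4% and 30.9% at 48 h in DMSO, 37.3% and 41.8% at 6 h with JQ1, and 39.9% and 36.6% at 48 h with JQ1. At least 2-fold higher and called were 22 genes at 6 h and 18 at 48 h in DMSO, 36 at 6 h with JQ1 and 1, Rnd1, at 48 h with JQ1. The shares of all genes were 1.01%, 1.4%, 2.62% and 1.18%, and those of the bright genes 1.46%, 1.96%, 3.69% and 1.64%.

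**Figure D2:**
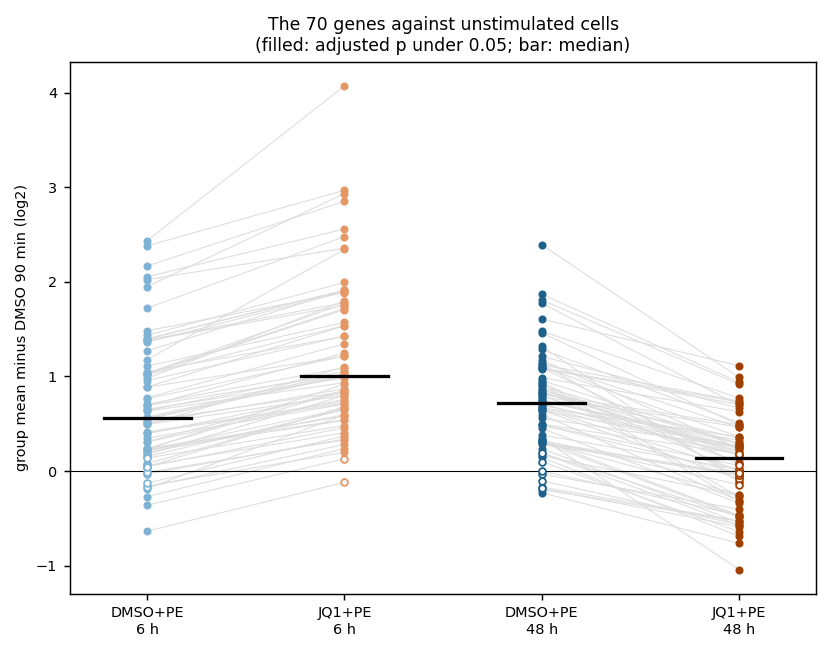
Difference from unstimulated 90 min DMSO cells (log2, y axis) of the 70 genes in the 4 PE groups (x axis). Each point is a gene, filled where the limma adjusted p is under 0.05, grey lines join a gene between DMSO and JQ1 of 1 time, and bars mark the medians of 0.56, 1.01, 0.72 and 0.14 from left to right.

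The calls below unstimulated cells were few and small in DMSO. At 6 h of PE they were Nav2 (-0.64), Gatm (-0.36), Snap91 (-0.27), Ezh2 (-0.19) and Galnt18 (-0.16), and at 48 h Piezo1 (-0.23 ± 0.084), Cish (-0.20 ± 0.067) and Sdc1 (-0.17 ± 0.050). Some of these calls were lost when 1 array was left out, often whichever of several arrays it was. The adjusted p of Ezh2 at 6 h exceeded 0.05 without unstimulated array 1 (0.127), unstimulated array 2 (0.0559), unstimulated array 3 (0.0687) and 6 h DMSO array 1 (0.485). For Galnt18 at 6 h the call was lost without unstimulated array 2 (0.103), unstimulated array 3 (0.108), 6 h DMSO array 1 (0.189) and 6 h DMSO array 2 (0.0777). For Piezo1 at 48 h it was lost without unstimulated array 1 (0.056), unstimulated array 2 (0.0624), unstimulated array 3 (0.149), 48 h DMSO array 1 (0.0536), 48 h DMSO array 2 (0.117) and 48 h DMSO array 3 (0.0966). For Cish it was lost without unstimulated array 2 (0.104), unstimulated array 3 (0.0629), 48 h DMSO array 1 (0.0775) and 48 h DMSO array 3 (0.0864), and for Sdc1 without unstimulated array 3 (0.0572) and 48 h DMSO array 2 (0.0619). At 48 h with JQ1 the deepest calls under the unstimulated level were Penk (-1.04 ± 0.054), Piezo1 (-0.77 ± 0.084), Stom (-0.69 ± 0.052), Emp1 (-0.64 ± 0.046) and Fam89a (-0.59 ± 0.091).

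By their changes from 6 h to 48 h in both arms, the 70 genes were sorted into 3 courses. From 6 h to 48 h of PE in DMSO, 23 genes were at least 0.3 higher (8.80% of all genes) and 20 at least 0.3 lower (8.18%), with a median change of -0.10. With JQ1 over the same interval 59 were at least 0.3 lower (16.5%) and 2 at least 0.3 higher (15.5%), with a median of -1.09. The choice itself sets the change with JQ1 at least 0.6 under the change in DMSO, so the gap is a description. It also means that each gene must rise by 0.3 in DMSO, fall by 0.3 with JQ1, or do both. That all 70 fall into these 3 courses is therefore fixed by the choice. In 47 genes the level fell by 0.3 or more with JQ1 and did not rise by 0.3 in DMSO (in 20 of these 47 it was at least 0.3 lower in DMSO too), in 12 it rose in DMSO and fell with JQ1, and in 11 it rose in DMSO without such a fall. The highest group mean was that of JQ1 at 6 h in 52 genes and that of DMSO at 48 h in 18, beside 25.5% and 16.4% of all genes. The lowest was the unstimulated mean in 34 genes, JQ1 at 48 h in 28 and DMSO at 6 h in 8, beside 23.5%, 22.4% and 13.7% of all genes. The choice barred DMSO at 6 h and JQ1 at 48 h from being highest. It likewise barred JQ1 at 6 h and DMSO at 48 h from being lowest. All genes could fall in any of the 5 groups, so nothing is read from these counts beside those shares.

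**Figure D3:**
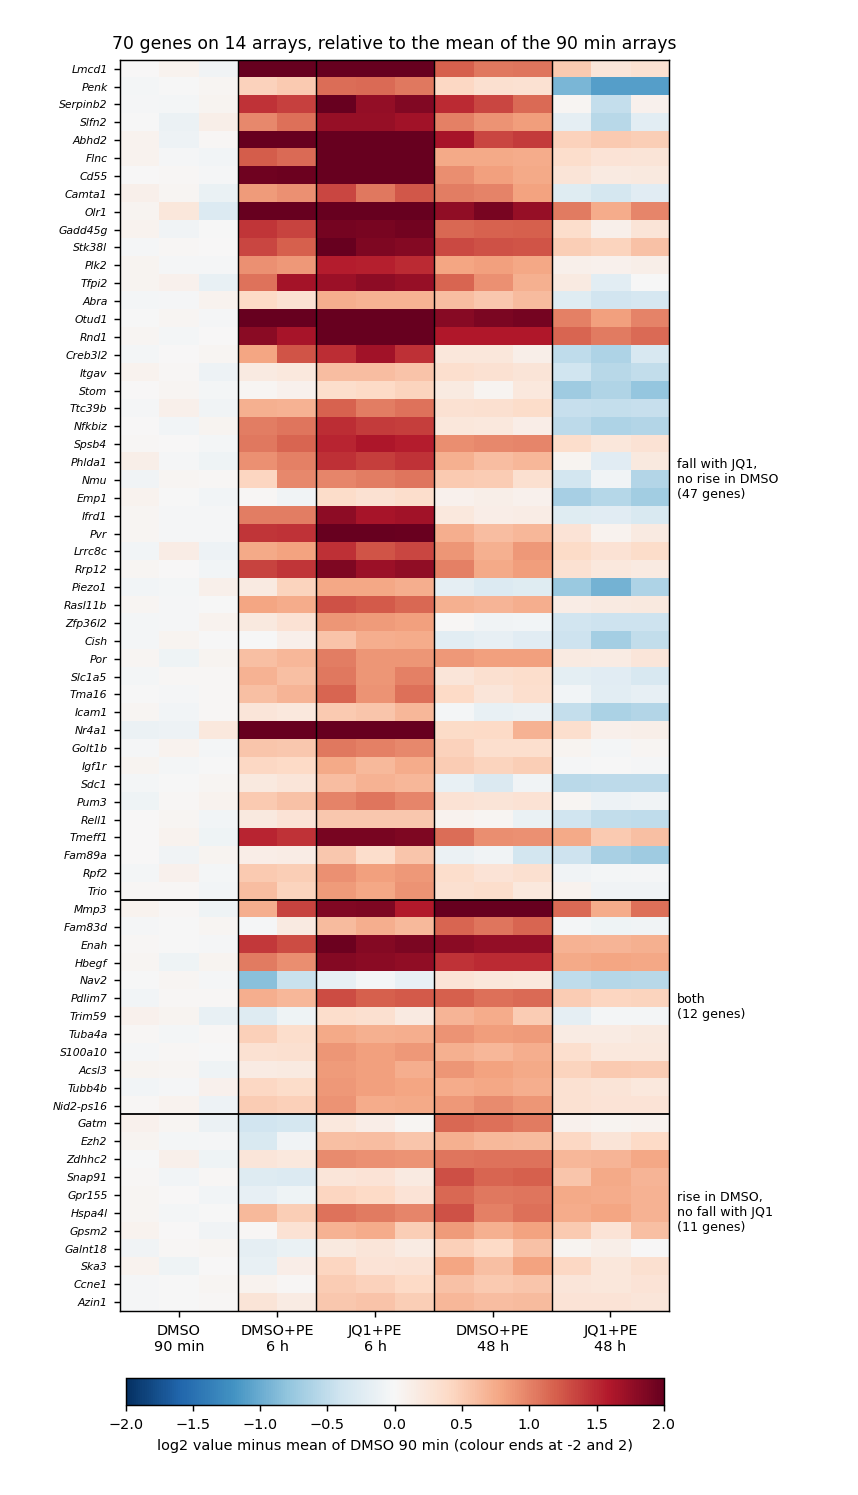
The 70 genes (rows) on the 14 arrays (columns, by group), as log2 value minus the mean of the unstimulated 90 min arrays, red above and blue below, with colours ending at 2 and -2. Rows are ordered by time course (47, 12 and 11 genes) and then by the sum of the sizes of the 2 JQ1 differences. Red deepens from DMSO to JQ1 at 6 h and fades from DMSO to JQ1 at 48 h, and arrays of a group look alike.

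**Figure D4:**
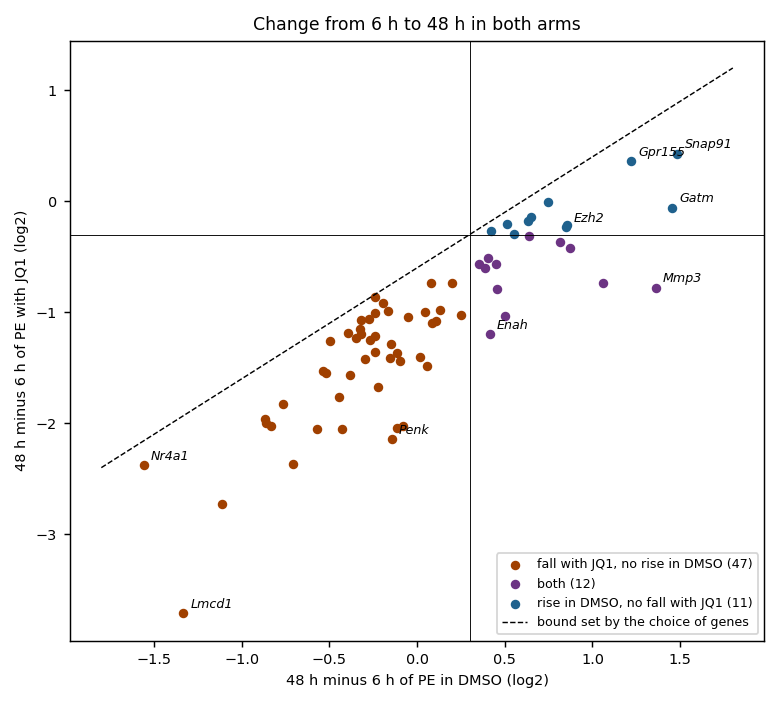
Change from 6 h to 48 h of PE in DMSO (x axis) against the same change with JQ1 (y axis), log2, for the 70 genes coloured by time course, with the bound that the choice of genes sets as a dashed line. Snap91 (1.48 and 0.43) and Gpr155 (1.22 and 0.36) are the 2 genes that rose by at least 0.3 with JQ1, and Lmcd1 fell by 1.33 in DMSO and fell by 3.71 with JQ1.

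Genes of the actin cytoskeleton, adhesion and force sensing made up 14 of the 70, in a grouping by known role made after the genes were known. At 6 h of PE in DMSO 13 of the 14 were called higher than unstimulated cells and 1, Nav2, lower, and at 48 h 12 were higher and 2 lower. Counts of this and the other role groups are to be read beside the 70 as a whole. In DMSO 78.6% of the 70 were higher at 6 h and 87.1% at 48 h, beside 18.3% and 21.4% of all genes. With JQ1 97.1% were higher at 6 h (30.9% of all genes). At 48 h with JQ1 50% were higher and 30% lower (31.6% and 29.2%). Lmcd1, which encodes a LIM-domain protein of heart muscle that acts as a transcriptional cofactor, had the largest swing of all 70. Lmcd1 read 8.95, 9.01 and 8.88 in unstimulated cells, 11.56 and 11.21 at 6 h of PE in DMSO, 13.08, 13.01 and 12.97 at 6 h with JQ1, 10.14, 9.997 and 10.02 at 48 h in DMSO and 9.48, 9.20 and 9.25 at 48 h with JQ1. No 2 groups overlapped, and the JQ1 arrays at 6 h were the highest and the unstimulated arrays the lowest. It was 5.41-fold above unstimulated cells at 6 h of PE in DMSO (log2 2.44 ± 0.10, adjusted p = 4.2e-09) and 16.8-fold with JQ1 (log2 4.07 ± 0.090, adjusted p = 2.1e-12). By 48 h with JQ1 it was 1.28-fold above them (log2 0.36 ± 0.090, adjusted p = 0.00364). The JQ1 difference was 1.64 ± 0.10 at 6 h and -0.74 ± 0.090 at 48 h.

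Flnc encodes filamin C, the muscle actin crosslinker of the Z-disc. Flnc read 11.13, 11.04 and 11.0003 in unstimulated cells, 12.28 and 12.20 at 6 h of PE in DMSO, 13.42, 13.35 and 13.45 at 6 h with JQ1, 11.81, 11.82 and 11.80 at 48 h in DMSO and 11.41, 11.34 and 11.31 at 48 h with JQ1. Its groups did not overlap and stood in the same order as those of Lmcd1, with JQ1 differences of 1.17 ± 0.050 and -0.46 ± 0.045. Enah, an actin regulator of the Ena/VASP family, followed a different course. Enah read 9.97, 9.93 and 9.92 in unstimulated cells, 11.36 and 11.24 at 6 h of PE in DMSO, 11.91, 11.78 and 11.82 at 6 h with JQ1, 11.75, 11.69 and 11.70 at 48 h in DMSO and 10.63, 10.63 and 10.65 at 48 h with JQ1. In DMSO it went on rising to 48 h, by 0.41 ± 0.047, whereas with JQ1 it fell by 1.20 from the highest level of all groups. Against unstimulated cells it stood at 1.78 ± 0.042 at 48 h in DMSO (adjusted p = 6.2e-11) and at 0.70 ± 0.042 with JQ1 (adjusted p = 1.7e-08). Pdlim7, a PDZ and LIM scaffold on actin filaments, was the one member from the list of serum response factor and actin genes. Pdlim7 read 9.79, 9.85 and 9.87 in unstimulated cells, 10.56 and 10.50 at 6 h of PE in DMSO, 11.15, 11.04 and 11.07 at 6 h with JQ1, 11.03, 10.94 and 10.98 at 48 h in DMSO and 10.34, 10.26 and 10.29 at 48 h with JQ1. On this probe set all its PE groups lay above the unstimulated arrays without overlap, and JQ1 at 48 h was the lowest of the 4. The JQ1 differences were 0.56 ± 0.048 and -0.68 ± 0.043. A second bright probe set of Pdlim7 differed from unstimulated cells by 0.041 ± 0.044 at 48 h in DMSO and by -0.15 ± 0.044 with JQ1. Its JQ1 differences were 0.62 ± 0.049 and -0.19 ± 0.044.

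Nav2, which encodes a microtubule-binding protein, was the deepest call under the unstimulated level at 6 h of PE. Nav2 read 8.46, 8.51 and 8.44 in unstimulated cells, 7.64 and 8.03 at 6 h of PE in DMSO, 8.31, 8.43 and 8.32 at 6 h with JQ1, 8.74, 8.70 and 8.68 at 48 h in DMSO and 7.96, 7.90 and 7.92 at 48 h with JQ1. The 6 h DMSO and 48 h JQ1 arrays overlapped and were low, and the 48 h DMSO arrays were the highest. Rnd1, a regulator of cell shape, kept the highest level with JQ1 at 48 h relative to unstimulated cells (1.11 ± 0.047, adjusted p = 5.6e-10), after 2.48 ± 0.047 at 6 h. Abra, a striated muscle actin-binding protein, was 0.71 ± 0.048 above unstimulated cells at 6 h with JQ1 and -0.31 ± 0.048 from them at 48 h. Piezo1, a mechanically gated cation channel, had JQ1 differences of 0.45 ± 0.094 and -0.54 ± 0.084. Itgav, the integrin alpha V chain, had 0.40 ± 0.056 and -0.78 ± 0.050, and Sdc1, a cell surface heparan sulfate proteoglycan, 0.44 ± 0.056 and -0.36 ± 0.050. The remaining genes here were S100a10, a partner of annexin A2, Trio, a guanine nucleotide exchange factor, and the tubulins Tuba4a and Tubb4b, whose probe sets may also read near-identical tubulins. Their JQ1 differences were 0.54, 0.31, 0.32 and 0.43 at 6 h and -0.45, -0.32, -0.69 and -0.49 at 48 h.

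Secreted proteins and surface receptors, 12 of the 70, had the highest median response of the role groups at 6 h of PE: all 12 were called higher in DMSO, with a median of 1.21, and all 12 with JQ1, with a median of 1.79. At 48 h 11 were higher in DMSO, and with JQ1 6 were higher, 3 lower and 3 without a call. Mmp3, the matrix protease stromelysin 1, had the largest rise in DMSO at 48 h. Mmp3 read 5.19, 5.15 and 5.04 in unstimulated cells, 5.85 and 6.47 at 6 h of PE in DMSO, 6.98, 6.995 and 6.71 at 6 h with JQ1, 7.88, 7.39 and 7.29 at 48 h in DMSO and 6.26, 5.87 and 6.23 at 48 h with JQ1. The 48 h DMSO arrays were the highest, and the 6 h DMSO arrays overlapped those of JQ1 at 48 h. It stood 2.39 ± 0.18 above unstimulated cells at 48 h in DMSO (adjusted p = 3.0e-07) and 0.99 ± 0.18 with JQ1 (adjusted p = 3.1e-04). Its means of 5.13 in unstimulated cells, 6.16 at 6 h in DMSO and 6.12 at 48 h with JQ1 were under the dim limit of 6.23, so each of its JQ1 differences has a dim group on one side. Under that limit too were 1 or more group means of Olr1, Phlda1, Nmu and Fam89a. Its JQ1 differences were 0.74 ± 0.20 and -1.40 ± 0.18.

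Penk encodes the precursor of the enkephalin opioid peptides. Penk read 11.56, 11.59 and 11.64 in unstimulated cells, 12.06 and 12.11 at 6 h of PE in DMSO, 12.71, 12.73 and 12.65 at 6 h with JQ1, 12.02, 11.92 and 11.90 at 48 h in DMSO and 10.67, 10.50 and 10.49 at 48 h with JQ1. Its 5 groups did not overlap. The group with JQ1 was the highest at 6 h and the lowest at 48 h, -1.04 ± 0.054 from unstimulated cells (adjusted p = 3.6e-09). Serpinb2 encodes plasminogen activator inhibitor 2. Serpinb2 read 7.09, 7.06 and 7.16 in unstimulated cells, 8.54 and 8.46 at 6 h of PE in DMSO, 9.23, 8.86 and 8.95 at 6 h with JQ1, 8.59, 8.44 and 8.24 at 48 h in DMSO and 7.15, 6.62 and 7.19 at 48 h with JQ1. At 48 h with JQ1 its arrays overlapped the unstimulated ones, with a difference of -0.12 ± 0.14 (adjusted p = 0.507), and in DMSO the 6 h and 48 h arrays overlapped. The JQ1 differences were 0.51 ± 0.16 and -1.44 ± 0.14, the latter the largest of the 70 at 48 h. Cd55, which shields cells from complement, was mainly an early gene. Cd55 read 7.77, 7.79 and 7.74 in unstimulated cells, 9.70 and 9.73 at 6 h of PE in DMSO, 10.83, 10.57 and 10.70 at 6 h with JQ1, 8.69, 8.59 and 8.53 at 48 h in DMSO and 8.03, 7.94 and 7.96 at 48 h with JQ1. The 6 h groups were the highest without overlap, 3.87-fold over unstimulated cells in DMSO and 7.65-fold with JQ1.

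Hbegf encodes the EGF family ligand that is shed from the cell surface, and it was the member from the list of hypertrophic markers. Hbegf read 7.08, 6.96 and 7.10 in unstimulated cells, 8.08 and 7.97 at 6 h of PE in DMSO, 8.88, 8.85 and 8.82 at 6 h with JQ1, 8.50, 8.54 and 8.55 at 48 h in DMSO and 7.80, 7.83 and 7.82 at 48 h with JQ1. No groups overlapped, and DMSO rose from 6 h to 48 h by 0.50 ± 0.049 while with JQ1 it fell by 1.03. Olr1, a scavenger receptor for oxidised LDL, was 5.21-fold above unstimulated cells at 6 h in DMSO and 7.84-fold with JQ1, from a dim starting level, and had JQ1 differences of 0.59 ± 0.13 and -0.89 ± 0.12. Tfpi2, a protease inhibitor of the matrix, had 0.37 ± 0.16 and -0.94 ± 0.15, and the neuropeptide gene Nmu 0.33 ± 0.15 and -0.79 ± 0.13. Receptors for adhesion and growth factors were also among the 12. Icam1 had JQ1 differences of 0.36 ± 0.059 and -0.46 ± 0.053, and the poliovirus receptor homologue Pvr 0.56 ± 0.054 and -0.50 ± 0.049. Igf1r, the receptor for insulin-like growth factor 1, had 0.31 ± 0.042 and -0.51 ± 0.038, and Tmeff1 0.40 ± 0.076 and -0.36 ± 0.068.

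Regulators of signalling, stress and transcription were the largest role group with 16 genes, and 15 of them were among the 47 that fell by 0.3 or more with JQ1 without such a rise in DMSO. Of the 16, 4 were at least 0.3 lower at 48 h than at 6 h in DMSO too. In DMSO 15 of 16 were called higher at 6 h and 13 at 48 h, with 1, Cish, lower at 48 h. With JQ1 all 16 were higher at 6 h, beside 30.9% of all genes. At 48 h with JQ1 7 were higher, 7 lower and 2 without a call, beside 31.6% higher and 29.2% lower of all genes. Slfn2, a Schlafen family gene known from the quiescence of immune cells, had the largest swing here. Slfn2 read 7.63, 7.52 and 7.75 in unstimulated cells, 8.59 and 8.73 at 6 h of PE in DMSO, 9.38, 9.37 and 9.31 at 6 h with JQ1, 8.64, 8.53 and 8.47 at 48 h in DMSO and 7.45, 7.08 and 7.42 at 48 h with JQ1. JQ1 at 6 h was the highest group and JQ1 at 48 h the lowest, below every unstimulated array, while the 2 DMSO groups with PE overlapped. Camta1, a calmodulin-binding transcription activator, had overlapping levels at 6 h and 48 h of PE in DMSO. Camta1 read 11.44, 11.39 and 11.21 in unstimulated cells, 12.20 and 12.27 at 6 h of PE in DMSO, 12.69, 12.41 and 12.59 at 6 h with JQ1, 12.37, 12.34 and 12.16 at 48 h in DMSO and 11.10, 10.995 and 11.12 at 48 h with JQ1. At 48 h with JQ1 it was -0.27 ± 0.082 from unstimulated cells (adjusted p = 0.0109), a call lost without unstimulated array 1 (0.0502). Its JQ1 difference of 0.33 ± 0.091 at 6 h was small beside -1.22 ± 0.082 at 48 h.

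Several others were feedback and stress genes. Nr4a1, an orphan nuclear receptor induced within minutes of stimulation, was 4.15-fold above unstimulated cells at 6 h in DMSO and 5.9-fold with JQ1, and 0.50 ± 0.11 (log2) above them at 48 h in DMSO against 0.18 ± 0.11 with JQ1. Otud1, a deubiquitinase, held 2.03 ± 0.057 and 1.87 ± 0.051 in DMSO, and 2.36 ± 0.051 and 0.94 ± 0.051 with JQ1. Gadd45g, a stress-induced growth arrest gene, had JQ1 differences of 0.51 ± 0.066 and -0.94 ± 0.059, the kinase Plk2 0.65 ± 0.041 and -0.69 ± 0.037, and the kinase Stk38l 0.64 ± 0.064 and -0.77 ± 0.058. Creb3l2, an ER-anchored transcription factor, fell from 1.54 ± 0.11 above unstimulated cells at 6 h with JQ1 to -0.48 ± 0.11 at 48 h. Nfkbiz, a nuclear modulator of NF-kappaB, went from 1.42 ± 0.044 to -0.57 ± 0.044, and Ifrd1, a transcriptional co-regulator, from 1.71 ± 0.043 to -0.26 ± 0.043. Zfp36l2, which promotes mRNA decay, went from 0.85 ± 0.043 to -0.40 ± 0.043, and Cish, a feedback inhibitor of cytokine receptors, from 0.68 ± 0.067 to -0.53 ± 0.067. Spsb4, Phlda1 and Rasl11b had JQ1 differences of 0.46, 0.47 and 0.45 at 6 h and -0.67, -0.65 and -0.54 at 48 h.

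**Figure D5:**
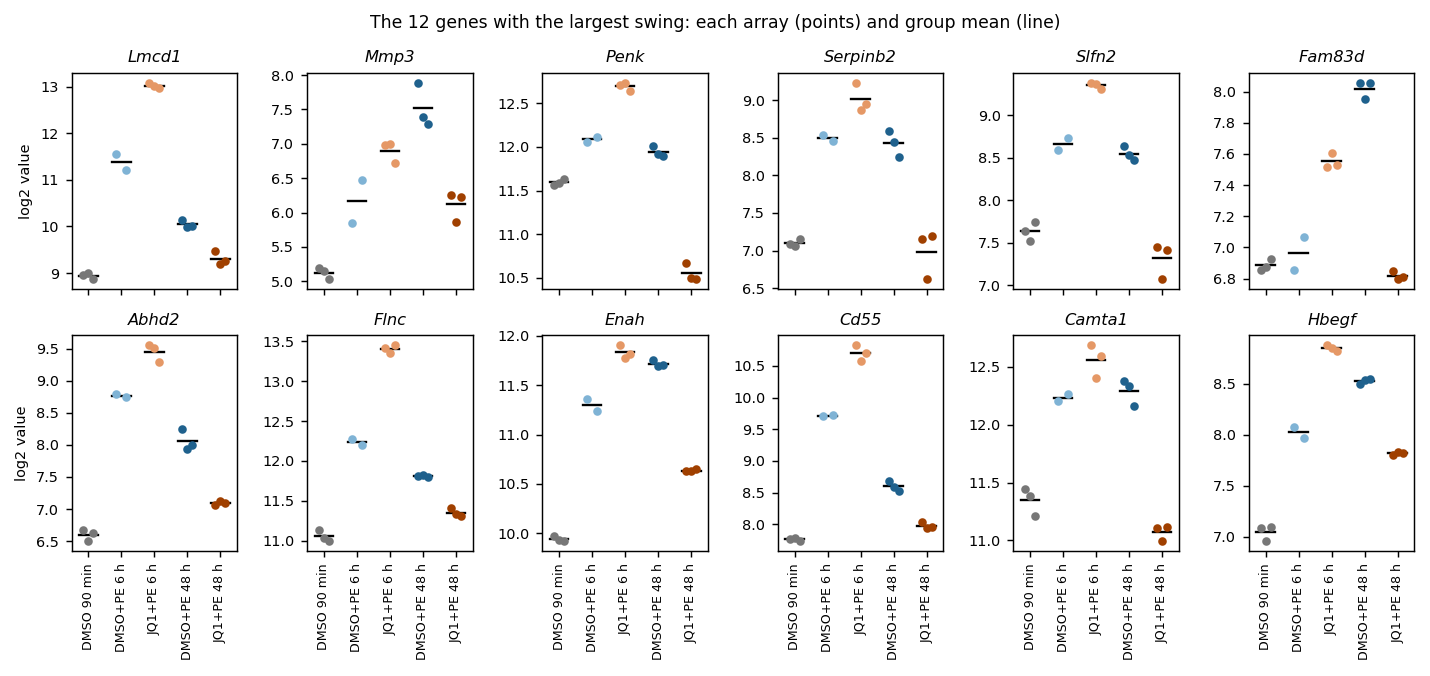
Log2 values (y axis) of the 12 genes with the largest swing, the 6 h JQ1 difference minus the 48 h one, in the 5 groups (x axis), with each array as a point and the group mean as a line. Mmp3 and Fam83d have their highest group mean at 48 h in DMSO, and all other genes shown have it at 6 h with JQ1. Axes differ between panels and do not start at 0.

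Genes of ribosome assembly and polyamine control were all called higher in DMSO, 5 of 5 at both 6 h and 48 h of PE. They are Rrp12, Rpf2, Tma16 and Pum3, nucleolar proteins linked to ribosomal subunit assembly, and Azin1, which relieves the brake on ornithine decarboxylase. All 5 were higher at 6 h with JQ1, with a median of 1.01, and at 48 h with JQ1 2 were higher and 3 had no call. Rrp12 stood 1.78 ± 0.064 above unstimulated cells at 6 h with JQ1 and 0.23 ± 0.064 at 48 h. Azin1 was the one gene here that rose in DMSO from 6 h to 48 h, by 0.42 ± 0.039. The JQ1 differences of Tma16, Pum3 and Rpf2 were 0.41, 0.46 and 0.36 at 6 h and -0.47, -0.33 and -0.36 at 48 h.

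The 5 genes of cell division and chromatin had another course: none was called higher at 6 h of PE in DMSO, all 5 were with JQ1 at that time, and all 5 were higher at 48 h in DMSO. Fam83d, which takes part in spindle assembly, showed this most clearly. Fam83d read 6.86, 6.87 and 6.93 in unstimulated cells, 6.86 and 7.07 at 6 h of PE in DMSO, 7.52, 7.61 and 7.53 at 6 h with JQ1, 8.06, 7.95 and 8.05 at 48 h in DMSO and 6.85, 6.80 and 6.81 at 48 h with JQ1. The 6 h DMSO arrays overlapped the unstimulated ones, JQ1 at 6 h lay above both, and JQ1 at 48 h was back below the unstimulated arrays, a difference of -0.066 ± 0.053 (adjusted p = 0.307). Ezh2, the methyltransferase that places the repressive mark on histone H3 lysine 27, stayed above unstimulated cells in JQ1 at 48 h. Ezh2 read 8.07, 7.97 and 7.99 in unstimulated cells, 7.71 and 7.94 at 6 h of PE in DMSO, 8.62, 8.63 and 8.57 at 6 h with JQ1, 8.72, 8.66 and 8.65 at 48 h in DMSO and 8.43, 8.27 and 8.42 at 48 h with JQ1. No groups overlapped, with DMSO at 6 h the lowest and DMSO at 48 h the highest. Its JQ1 difference was 0.78 ± 0.066 at 6 h and -0.30 ± 0.059 at 48 h. Ccne1, the cyclin of S phase entry, had 0.41 ± 0.041 and -0.31 ± 0.037, Ska3, a kinetochore protein, 0.34 ± 0.093 and -0.41 ± 0.083, and Gpsm2, a spindle orientation protein, 0.49 ± 0.11 and -0.32 ± 0.096. In the list of 31 mitotic genes measured, which holds none of these 5, JQ1 was called lower for 21 at 6 h and for all 31 at 48 h, with medians of -0.40 and -1.82.

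Metabolic, transport and membrane traffic genes numbered 11, and all 11 were called higher at 48 h of PE in DMSO. Abhd2, a lipid hydrolase, was an early gene. Abhd2 read 6.67, 6.50 and 6.63 in unstimulated cells, 8.80 and 8.74 at 6 h of PE in DMSO, 9.56, 9.51 and 9.29 at 6 h with JQ1, 8.25, 7.94 and 7.99 at 48 h in DMSO and 7.06, 7.12 and 7.09 at 48 h with JQ1. No groups overlapped, and the fall from 6 h to 48 h was -0.71 ± 0.094 in DMSO and -2.36 ± 0.084 with JQ1. Gatm, the enzyme of the first step of creatine synthesis, was a late one. Gatm read 8.24, 8.18 and 8.03 in unstimulated cells, 7.77 and 7.81 at 6 h of PE in DMSO, 8.36, 8.29 and 8.19 at 6 h with JQ1, 9.30, 9.25 and 9.19 at 48 h in DMSO and 8.24, 8.21 and 8.22 at 48 h with JQ1. In DMSO it dipped at 6 h and was the highest at 48 h, 1.09 ± 0.056 above unstimulated cells (adjusted p = 1.4e-08), whereas both JQ1 groups overlapped the unstimulated arrays. With JQ1 the difference from unstimulated cells was 0.13 ± 0.056 at 6 h (adjusted p = 0.0641) and 0.070 ± 0.056 at 48 h (adjusted p = 0.306).

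Snap91, a clathrin assembly protein known from synapses, also dipped early in DMSO and rose late. Snap91 read 9.75, 9.67 and 9.75 in unstimulated cells, 9.46 and 9.45 at 6 h of PE in DMSO, 9.97, 9.9998 and 9.90 at 6 h with JQ1, 11.02, 10.88 and 10.91 at 48 h in DMSO and 10.28, 10.48 and 10.40 at 48 h with JQ1. With JQ1 the 6 h level was above the unstimulated arrays and the 48 h level lay between that and DMSO at 48 h, without overlap of any groups. Gpr155, a multipass membrane protein, had the same order of groups. Gpr155 read 7.91, 7.88 and 7.81 in unstimulated cells, 7.70 and 7.78 at 6 h of PE in DMSO, 8.29, 8.27 and 8.14 at 6 h with JQ1, 9.01, 8.91 and 8.93 at 48 h in DMSO and 8.62, 8.61 and 8.56 at 48 h with JQ1. The JQ1 differences of Gpr155 were 0.50 ± 0.054 and -0.36 ± 0.048. Zdhhc2, a palmitoyltransferase, was lowest in unstimulated cells. Zdhhc2 read 10.13, 10.23 and 10.04 in unstimulated cells, 10.38 and 10.35 at 6 h of PE in DMSO, 11.07, 11.05 and 11.03 at 6 h with JQ1, 11.20, 11.22 and 11.22 at 48 h in DMSO and 10.80, 10.81 and 10.90 at 48 h with JQ1. Every PE group was above the unstimulated arrays, and JQ1 at 48 h was -0.38 ± 0.047 from DMSO. Hspa4l, a heat shock co-chaperone counted among the stress genes above, was also lowest there. Hspa4l read 6.64, 6.56 and 6.58 in unstimulated cells, 7.23 and 7.09 at 6 h of PE in DMSO, 7.67, 7.63 and 7.57 at 6 h with JQ1, 7.86, 7.60 and 7.69 at 48 h in DMSO and 7.33, 7.38 and 7.28 at 48 h with JQ1. JQ1 at 6 h and DMSO at 48 h overlapped as the highest groups.

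Slc1a5, a glutamine transporter, had JQ1 differences of 0.33 ± 0.060 and -0.55 ± 0.054, and Lrrc8c, a subunit of the volume-regulated anion channel, 0.57 ± 0.080 and -0.47 ± 0.072. Acsl3, which activates fatty acids, had 0.62 ± 0.057 and -0.32 ± 0.051, and Por, the electron donor of cytochrome P450 enzymes, 0.30 ± 0.055 and -0.64 ± 0.050. Golt1b and Galnt18, both of the Golgi, had 0.46 and 0.36 at 6 h and -0.36 and -0.43 at 48 h. For 7 genes no role was assigned: Trim59, Stom, Ttc39b, Emp1, Nid2-ps16, Rell1 and Fam89a. At 48 h with JQ1 5 of these 7 were called lower than unstimulated cells and 1 higher, with a median of -0.47. The probe set of Nid2-ps16, a pseudogene in the gene table, may read related transcripts.

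Other probe sets of the same genes, which had no part in the choice, give a partial repeat on the same arrays. There were 30 of them for 24 of the 70 genes. JQ1 was higher at 6 h and lower at 48 h on 17 (56.7%), beside 13.9% of the 5326 other probe sets of all genes, and 6 (20.0%) passed 0.3 and -0.3 at the 2 times, beside 0.357%. Among the 16 with a group mean of at least 7, 13 had both signs, or 81.2% beside 10.3%. Several probe sets differed from the chosen one. A second probe set of Cd55 had 0.90 at 6 h and 0.24 at 48 h, and that of Flnc 0.94 and -0.058. Camta1 had 1 other probe set with 0.61 and 0.16 and another with 0.32 and -1.52. Enah had 1 with -0.0060 and -1.20, and a dim one of Ezh2 had 0.43 and 0.60 while a brighter one had 0.57 and -0.50. Both other probe sets of Rrp12 repeated the pattern, with 0.39 at 6 h and -0.39 and -0.46 at 48 h. For Cd55 and Flnc the -0.3 at 48 h was thus reached on the chosen probe set and not on the other bright one. The same held for Pdlim7 (-0.19 on the other bright one), Pum3 (-0.21), Tmeff1 (-0.22), Trio (-0.205) and Azin1 (-0.29). At 6 h the 0.3 was likewise missed on the other bright probe set of Enah and of Nid2-ps16 (0.27). Of the 16 bright ones 6 passed both limits, or 37.5% beside 0.755%.

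Promoters are shown for 4 of the genes with the largest swing, since their starts carry AP-1-like or CRE letters that were counted over all promoters. Each sequence is the 250 bases before the RefSeq start site on the plus strand of GRCr8, 5′ to 3′, at chr4:146948743-146948992 for Lmcd1, chr8:12925031-12925280 for Mmp3, chr13:24055771-24056020 for Serpinb2 and chr10:68450611-68450860 for Slfn2. Capitals mark TGANTCA or the CRE letters, TGACGTCA. TGANTCA takes in the AP-1 core letters, TGAGTCA and TGACTCA, and the looser TGATTCA and TGAATCA. Serpinb2 holds the looser TGATTCA.
Lmcd1: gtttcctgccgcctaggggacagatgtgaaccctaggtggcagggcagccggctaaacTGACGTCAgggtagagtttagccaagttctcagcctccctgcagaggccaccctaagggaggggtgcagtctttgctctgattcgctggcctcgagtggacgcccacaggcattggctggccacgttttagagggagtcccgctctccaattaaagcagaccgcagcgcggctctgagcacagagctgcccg
Mmp3: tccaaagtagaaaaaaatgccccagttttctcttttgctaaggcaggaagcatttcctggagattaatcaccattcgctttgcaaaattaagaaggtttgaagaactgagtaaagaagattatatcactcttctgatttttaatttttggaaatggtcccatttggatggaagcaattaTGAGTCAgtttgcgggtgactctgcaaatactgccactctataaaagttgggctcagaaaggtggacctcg
Serpinb2: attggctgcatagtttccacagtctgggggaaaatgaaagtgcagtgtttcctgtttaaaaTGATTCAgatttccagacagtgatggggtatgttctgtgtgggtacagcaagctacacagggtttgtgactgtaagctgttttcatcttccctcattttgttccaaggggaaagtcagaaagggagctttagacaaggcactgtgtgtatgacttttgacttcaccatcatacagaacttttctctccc
Slfn2: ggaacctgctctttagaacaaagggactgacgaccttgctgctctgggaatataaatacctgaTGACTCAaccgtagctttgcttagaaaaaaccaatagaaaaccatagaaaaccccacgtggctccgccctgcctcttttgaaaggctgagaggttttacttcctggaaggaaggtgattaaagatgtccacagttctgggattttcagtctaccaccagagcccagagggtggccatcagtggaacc

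The first marked base lies 192 bases before the start in Lmcd1, 71 in Mmp3, 189 in Serpinb2 and 187 in Slfn2. RefSeq promoters of 300 bases, 250 before and 50 after the start, were found for 56 of the 70 genes and for 10867 of the genes measured, and motifs were searched on both strands. TGANTCA was in 8 of the 56 (14.3%), namely Mmp3, Serpinb2, Slfn2, Fam83d, Olr1, Tfpi2, Nmu and Emp1, beside 5.45% of promoters of measured genes. Of these, Serpinb2, Fam83d and Tfpi2 held only the looser TGATTCA or TGAATCA. The AP-1 core letters alone were not counted over measured genes. The CRE letters TGACGTCA were in 3, Lmcd1, Stk38l and Plk2 (5.36% beside 2.93%). The E-box CACGTG was in 8 (14.3% beside 9.01%), the GC box GGGCGG in 40 (71.4% beside 58.2%) and CCAAT in 27 (48.2% beside 37.4%). TATAAA was in 7 (12.5% beside 8.35%), the cell cycle homology letters TTTGAA in 7 (12.5% beside 12.1%), and an interferon response element pattern in 2 (3.57% beside 3.01%). The CArG box of serum response factor was in none of the 56, beside 1.33%, and the stricter form of it was also in none, beside 0.0552%. Median GC content was 64.5%, beside 60.0% for measured genes, which bears on how often GC-rich letters occur. A match of letters is a description of sequence and not of binding.

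Pathway lists drawn up for this tissue held few of the 70 genes: 12 were in 11 of 28 lists, and 58 in none. The 12 were Ccne1 (DNA replication), Gadd45g and Plk2 (cyclins, CDK inhibitors and p53 targets), Rrp12 (ribosome biogenesis), Nr4a1 (immediate early), Pdlim7 (serum response factor and actin), Hspa4l (heat shock), Icam1 (inflammatory), Mmp3 (matrix), Hbegf (hypertrophic and growth factor), Igf1r (growth factor) and Slc1a5 (transporters). They are 1.75% of the 685 list genes measured, beside 0.531% of all genes. The second share includes genes too dim to be chosen, since 8672 of the 13184 were bright enough. Brightness of the list genes was not matched. Smaller shifts of the same kind were counted with limma calls in place of the 0.3 limits. JQ1 was called higher than DMSO for 25.5% of all genes at 6 h and lower for 28.8%, and at 48 h higher for 30% and lower for 29.6%. Higher at 6 h together with lower at 48 h were 266 genes, or 2.02%. Of 30 genes in the list of serum response factor targets and actin cytoskeleton 10 had both calls, Actg2, Actn1, Actn4, Csrp1, Fhl2, Flna, Pdlim7, Tagln, Tes and Tubb6. The list did not move as one at 6 h, where JQ1 was called higher for 18 of the 30 and lower for 10. At 48 h it was called higher for 5 and lower for 21. Of 29 immediate early genes 6 had both, Dusp6, Ier3, Jun, Klf6, Myc and Nr4a1. In that list JQ1 was called higher for 18 and lower for 3 at 6 h, and higher for 9 and lower for 12 at 48 h. The counts were 5 of 27 for ribosome biogenesis, 3 of 26 for DNA replication (Ccne1, E2f1 and Gins1) and 1 of 31 for the mitotic list. Several lists had no gene with both calls, among them histone genes, fatty acid oxidation and the respiratory chain. Pdlim7, Nr4a1, Rrp12 and Ccne1 are among the 70 and were chosen by the same 2 differences, so nothing is read from their calls. The lists were drawn up with earlier results of these data known, so these counts describe them and are no test.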

How the data were processed

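The deposited table holds log2 values for each probe set of each array. How the authors summarized, background-corrected and normalized the arrays is not given in the sources used here. Their only named tool, per the submitters' processing notes, is limma, with no step attached to it. Of 20223 probe sets 18510 had 1 gene symbol, 305 several, 1402 none and 6 were controls, and symbols were updated through gene identifiers to RefSeq GRCr8 (18461 matched so, 1 by accession, and 48 kept the platform's symbol). The brightest probe set was kept for each of 13184 genes. All 14 arrays entered 1 limma 3.58.1 model in R 4.3.3 with a mean per group (9 residual degrees of freedom), and its P-values were adjusted by the Benjamini-Hochberg method over all genes. The script was tested on simulated data. The members and the gene lists were chosen with earlier results of these data known. The grouping by role and the CArG box were added after the members were seen. Shown in full are the 12 genes with the largest swing and the 6 largest of each time course. Given with values are, per comparison with unstimulated cells, the 5 largest called rises and falls, list members, and the 3 genes nearest each limit, and other members were named freely. Alternatives were the mean of probe sets, repeated quantile normalization, median centring, a replicate block, a fit of only the groups compared, a fit of bright genes only, a variance trend, other limits of choice and leaving out each array. Array number limits the precision.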

Additional observations from a re-analysis of the deposited data

Results flagged for a closer look

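Some genes stood on opposite sides of the unstimulated 90 min arrays at 6 h and at 48 h of PE, on every array of both times and with a limma call at both. The value given is the 48 h mean minus the 6 h mean of the same arm, on the log2 scale. In DMSO they were Gatm (1.46), Nav2 (0.87), Ezh2 (0.85), Snap91 (1.48), Piezo1 (-0.54), Sdc1 (-0.39) and Galnt18 (0.65). Most of these 7 were lower than unstimulated cells at 6 h and higher at 48 h, and Piezo1 and Sdc1 were higher first and lower later. Calls of 5 of these genes were lost with 1 array left out (adjusted p by limma in parentheses). At 6 h that of Piezo1 was lost without unstimulated array 1 (0.065), unstimulated array 2 (0.0625) and 6 h DMSO array 2 (0.239), and that of Sdc1 without 6 h DMSO array 2 (0.0557). At 48 h that of Nav2 was lost without unstimulated array 1 (0.0608), unstimulated array 3 (0.0704), 48 h DMSO array 1 (0.0717) and 48 h DMSO array 2 (0.0505). The losses for Ezh2 and Galnt18 at 6 h and for Piezo1 and Sdc1 at 48 h are given with the calls below unstimulated cells. With JQ1 the genes on opposite sides were Penk (-2.14), Slfn2 (-2.04), Camta1 (-1.49), Abra (-1.02), Creb3l2 (-2.02), Itgav (-1.08), Stom (-1.10), Ttc39b (-1.56), Nfkbiz (-1.999), Emp1 (-0.98), Ifrd1 (-1.96), Piezo1 (-1.53), Zfp36l2 (-1.25), Cish (-1.21), Slc1a5 (-1.23), Icam1 (-1.15), Sdc1 (-1.18), Rell1 (-1.01) and Fam89a (-1.07), all higher at 6 h and lower at 48 h. Of these calls with JQ1, that of Camta1 at 48 h was lost with 1 array left out. The difference between the times was not tested, and the way the genes were chosen favours a fall with JQ1.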

How the results depend on the processing

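The count of 70 genes went to 107 with a limit of 0.25 and to 33 with 0.4. It was 56 with the mean of probe sets (51 shared with the 70), 73 with quantile normalization repeated (61 shared), 80 with median centring (53 shared), 75 and 63 with brightness limits of 6 and 8, and 65 to 82 with 1 array left out, where 49 genes stayed in every time. Median centring raised JQ1 at 48 h against unstimulated cells by 0.10 at the median gene, and gave 39 genes higher and 19 lower there in place of 35 and 21.

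The count of 5 genes lower at 6 h of PE in DMSO was 1 with the mean of probe sets, 3 in a fit of only the 2 groups compared, and 3 to 4 with 1 array left out (3 without unstimulated array 2 or 3 or 6 h DMSO array 1). The count of 3 lower at 48 h was 0 to 2 with 1 array left out, with 0 without unstimulated array 3, 1 without unstimulated array 2 or any 48 h DMSO array, and 2 without unstimulated array 1. Leaving out an array also lowers the number of arrays, and the cause of these changes was not tested. All other counts against unstimulated cells stayed within 1.5 times. Of 280 pairs of a gene and a comparison 24 lost the call under at least 1 alternative, and none of the 3570 single values computed was reversed with a call.

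With the replicate number as a block, 74 genes would be chosen (69 shared), and 1 gene instead of 3 was lower at 48 h in DMSO. Deviations of same-numbered arrays correlated at -0.27 to 0.18 over 26 pairs, 3 of them over 0.1, beside 11 of 52 pairs of other numbers, so the numbers do not pair the arrays.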
